A study of Homo sapiens with 6 samples.

Results

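Of the 31814 genes in the deposited table, 85 encode receptors for neurotransmitters. They were chosen by symbol alone: the GABA-A (GABR), GABA-B (GABBR), glycine (GLR), AMPA (GRIA), kainate (GRIK), NMDA (GRIN) and metabotropic glutamate (GRM) receptor genes, the nicotinic (CHRN) and muscarinic (CHRM) acetylcholine receptor genes, and the serotonin (HTR), dopamine (DRD) and adrenergic (ADR) receptor genes. H69, a human cell line, had been kept for 24 h in 1 µM TSA (trichostatin A) or in the solvent DMSO (vehicle), and each group held 3 libraries. All cells were the same line grown in RPMI medium with serum, and no allele or other agent is named. TSA blocks histone deacetylases, enzymes that take acetyl groups off histones and other proteins. The labels give no tissue for H69, a name used for more than one human line, and the tag of the treated samples says HSA where the design and protocol say TSA. Of 101 protein-coding symbols in RefSeq that follow the same naming, 84 had a row, and the other 17, GRIA3, GRIK1, CHRNA1 and HTR2A among them, were not analysed here.

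Receptors for fast transmission are ion channels built from several subunits around a pore, and the mix of subunits sets which ion passes, how fast the channel closes and which drugs bind. GABA-A and glycine receptors pass chloride and in mature neurons mostly inhibit, while AMPA, kainate, NMDA, nicotinic and HTR3 receptors pass cations and excite. The metabotropic glutamate, GABA-B, muscarinic, dopamine, adrenergic and most serotonin receptors act through G proteins on adenylyl cyclase, phospholipase C and ion channels. Cells outside the brain use them too, and nicotinic, GABA and adrenergic receptors in particular are known from neuroendocrine and epithelial cells.

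Values are given in TPM, which are scaled by gene length and library total, so that levels of different genes can be set side by side. Where 3 values are given they belong to libraries 1, 2 and 3 of a group, in that order. Reads recovered from the TPM values came to between 22665690 and 26242609 a library. The libraries of a group are not stated to be separate cultures, and the p-values therefore reflect only the spread between these libraries, which could be technical. RNA was taken from whole cultures, so a smaller share of cells with a transcript and less of it in each cell cannot be told apart. Of 14 neuroendocrine marker genes tested, 3 rose (CHGA, NCAM1 and SCG3), 10 fell and SYP did not pass. Over all genes tested in the same fit, 28.0% rose and 34.2% fell. The neuroendocrine markers summed to 3736 to 4351 TPM in vehicle and 2007 to 2185 TPM in TSA libraries. INSM1, a transcription factor of neuroendocrine cells, had a mean of 614 TPM in vehicle and of 24.7 TPM in TSA. The mean of CHGA went the other way, from 138 to 239 TPM. Markers of bile duct cells summed to 770 to 976 TPM in vehicle and 346 to 460 TPM in TSA libraries. Of the 6 tested, 3 rose (SOX9, SLC4A2 and SSTR2) and 3 fell. Most of the sum was EPCAM and KRT19, which fell, while CFTR did not exceed 0.129 TPM. Fibroblast markers summed to 0.514 to 1.42 TPM in vehicle and 8.37 to 13.4 TPM in TSA, leukocyte markers to 4.08 to 4.92 and 5.41 to 6.07 TPM, endothelial markers to at most 0.677 TPM and glial markers to 15.3 to 17.6 and 6.85 to 7.82 TPM. COL1A2, COL3A1, DCN, CD3E, KDR and GFAP were listed at 0 in every vehicle library. The part of these other genes in the receptor values was not tested.

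Vehicle-treated H69 cells held transcripts of all 12 receptor families, and in each family 1 to 3 genes made up most of the sum. The highest in vehicle were the kainate subunit GRIK3 at 79.4 ± 17.7 TPM (mean ± SD, n = 3), the dopamine receptor DRD2 at 62.1 ± 3.14 TPM, the nicotinic subunit CHRNB2 at 54.9 ± 1.89 TPM and the AMPA subunit GRIA1 at 48.9 ± 9.39 TPM. Library values overlapped between GRIK3 and DRD2 and between CHRNB2 and GRIA1, while DRD2 lay above CHRNB2 in every vehicle library. After TSA the order was led by CHRNA5 at 61.8 ± 10.1 TPM, CHRNB2 at 46.2 ± 4.87 TPM, the muscarinic receptor CHRM4 at 43.3 ± 5.05 TPM and DRD2 at 39.9 ± 2.63 TPM. CHRNA5 lay above CHRNB2 in every TSA library, and the values of CHRNB2, CHRM4 and DRD2 overlapped from one to the next. GRIA1 was no longer among the 12 highest, and GABRD, outside the 12 highest in vehicle, ranked sixth. The 85 genes summed to 544, 511 and 564 TPM in vehicle and to 407, 401 and 398 TPM in TSA libraries. Between 26 and 32 of them reached 1 TPM in a vehicle library and between 28 and 30 in a TSA library. By contrast 54 to 57 had at least 1 read in a vehicle library and 72 to 76 in a TSA library. The same count over all genes is not given here. Gains from no read were not confined to receptor genes. Of all 31814 genes, 4.08% had no read in vehicle and more than 3 in the TSA libraries, against 12.9% of the 85.

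A filter that asked for 1 TPM or more in any 3 of the 6 libraries let 32 of the 85 genes (37.6%) through to the test, which was limma on log2(TPM + 1) fitted over all 17596 genes that passed it. Of these 32, 8 rose and 13 fell at an adjusted p under 0.05 and 11 did not pass. Over all tested genes 62.2% were called (28.0% higher, 34.2% lower), and the 65.6% among receptor genes lies near that background. The median log2 difference was -0.19 over the tested receptor genes and -0.10 over all tested genes. In 11 of the 32 every TSA library lay above every vehicle library and in 15 every one lay below, against 30.8% and 36.2% of all tested genes (67.0% either way). GABRB2, ADRA1B and ADRA2B were under 1 TPM in every vehicle library and passed the filter only through the TSA libraries, and GRIA4 and GABRP passed only through vehicle, so their calls follow in part from the filter. Of the 27 that reached 1 TPM in a library of each group, 5 rose, 11 fell and 11 did not pass, where the background was 24.7% higher and 33.5% lower.

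**Figure D1:**
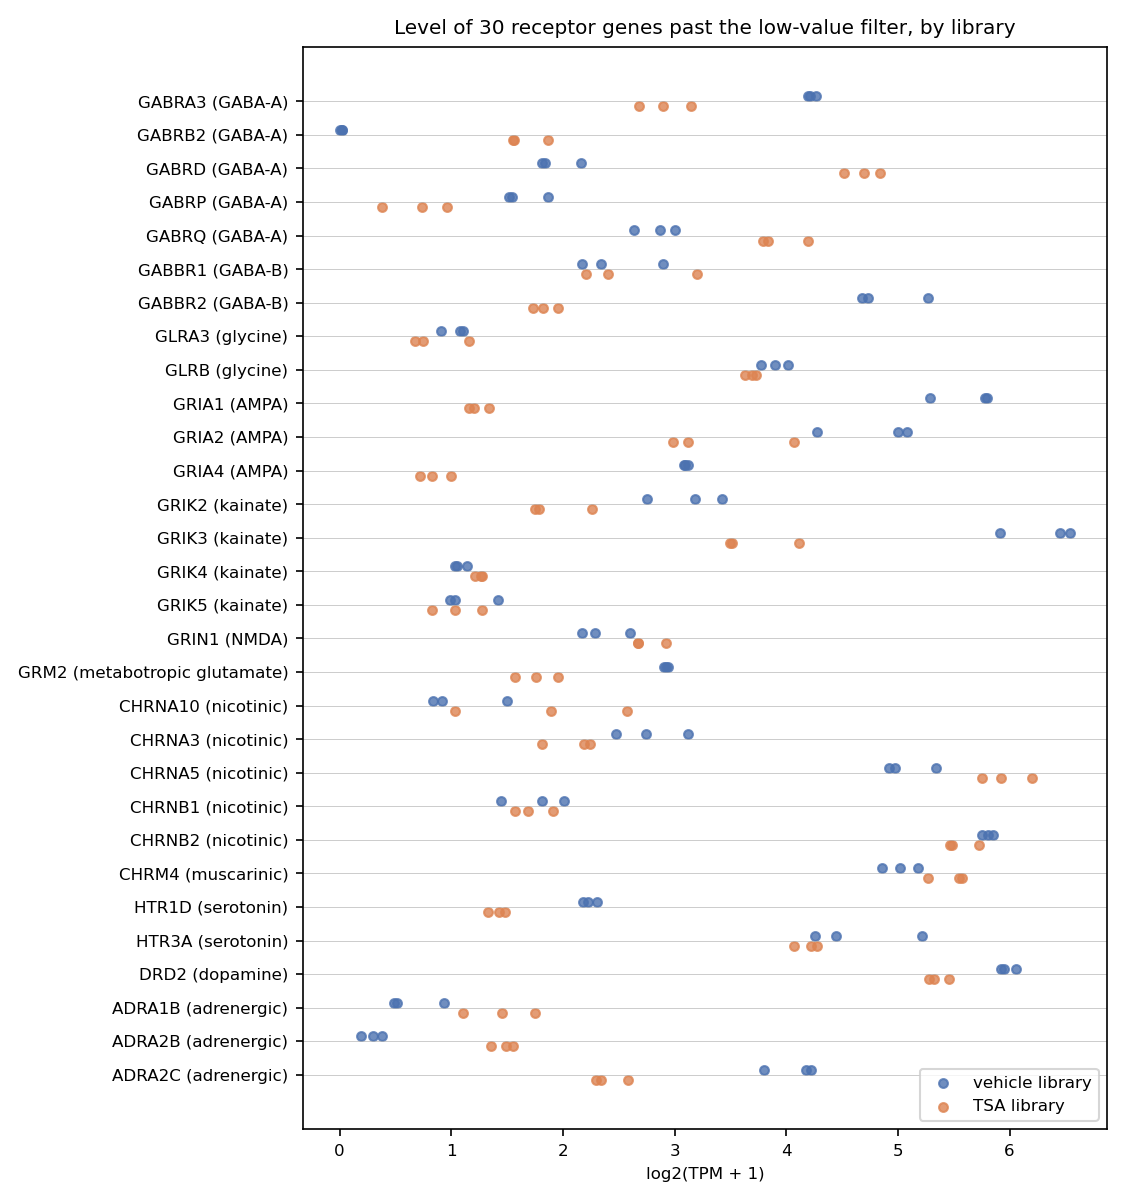
Level of 30 tested receptor genes in every library, as log2(TPM + 1) on the horizontal axis, with vehicle libraries in blue and TSA libraries in orange. The 3 libraries of a group sit close together for most genes, and GRIA1, GABBR2 and GABRD show wide gaps between the groups.

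The ionotropic and metabotropic glutamate receptor genes were the group with the most falls among tested genes. Of 22 genes, 9 were tested, and of these none rose, 6 fell and 3 did not pass, with a median log2 difference of -1.19. Over all tested genes 28.0% rose and 34.2% fell. Among the glutamate receptor genes below the filter, GRIN2D and GRIN3B rose and GRM4 fell in a fit of recovered reads described below. GRIA1 (ENSG00000155511.13), an AMPA receptor subunit of fast excitatory synapses, stood at 54.6, 38.0 and 54.0 TPM in vehicle and at 1.53, 1.30 and 1.24 TPM in TSA libraries. Its mean was 36.0-fold lower after TSA (log2 difference -4.39 ± 0.17, here and below ± the standard error, adjusted p = 8.2e-06, limma). That was the greatest fall among the tested receptor genes, and the groups lay far apart. GRIA4 (ENSG00000152578.8), the AMPA subunit linked to fast kinetics, was at 7.498, 7.547 and 7.70 TPM in vehicle and 0.778, 0.997 and 0.644 TPM in TSA libraries, a fall by 2.25 on the log2 scale (SE 0.14, adjusted p = 3.3e-05). GRIA2 (ENSG00000120251.14), the subunit whose edited form makes AMPA channels nearly impermeable to calcium, was at 32.9, 18.3 and 31.0 TPM in vehicle and 15.8, 6.94 and 7.68 TPM in TSA libraries. It fell by 1.39 (SE 0.35, adjusted p = 0.011), and the lowest vehicle value still lay above the highest TSA value.

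The make-up of the AMPA transcripts differed between the groups. The 3 AMPA genes measured summed to 83.9 ± 17.3 TPM in vehicle and 12.3 ± 5.01 TPM in TSA. GRIA2 made up 28.7% to 34.6% of that sum in vehicle libraries and 75.1% to 87.2% in TSA libraries, while GRIA1 made up 57.5% to 59.5% and 8.48% to 14.1%. The ratio of GRIA1 to GRIA2, a ratio chosen after the values were seen, was 1.66, 2.08 and 1.75 in vehicle and 0.0972, 0.187 and 0.161 in TSA. GRIA1 was thus the more abundant of the pair in all 3 vehicle libraries and GRIA2 in all 3 TSA libraries.

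The kainate receptor genes were led by GRIK3 (ENSG00000163873.5), a subunit that forms channels of low glutamate sensitivity. It was at 86.7, 59.3 and 92.4 TPM in vehicle and 16.3, 10.4 and 10.3 TPM in TSA libraries and fell by 2.60 (SE 0.23, adjusted p = 0.00013), 6.44-fold in the means. GRIK2 (ENSG00000164418.15), which forms channels alone or with other kainate subunits, was at 9.77, 5.74 and 8.09 TPM in vehicle and 3.80, 2.36 and 2.45 TPM in TSA and fell by 1.19 (SE 0.24, adjusted p = 0.0043). The high-affinity subunits GRIK4 and GRIK5, which need a partner subunit to form a channel, stayed between 0.776 and 1.67 TPM in every library and did not pass the test. Their log2 differences were 0.18 (95% interval -0.14 to 0.50, adjusted p = 0.29) for GRIK4 and -0.10 (-0.57 to 0.37, adjusted p = 0.68) for GRIK5. The kainate sum was 89.6 ± 19.6 TPM in vehicle and 17.7 ± 4.51 TPM in TSA libraries.

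NMDA receptors need the obligatory subunit GRIN1 together with a GRIN2 subunit. GRIN1 was at 3.88, 3.51 and 5.08 TPM in vehicle and 5.37, 5.37 and 6.60 TPM in TSA libraries; the groups did not overlap, but the difference of 0.40 ± 0.17 (adjusted p = 0.084) did not pass. All 6 other NMDA genes were below the filter. GRM2 (ENSG00000164082.10), a presynaptic metabotropic receptor that lowers cyclic AMP, was at 6.69, 6.48 and 6.59 TPM in vehicle and 2.89, 1.97 and 2.39 TPM in TSA and fell by 1.16 (SE 0.15, adjusted p = 0.00067).

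Values of long transcripts differed between libraries of a group, and several glutamate receptor genes varied between the same libraries. Over 1679 genes with a transcript of at least 6978 nucleotides, the median deviation from the group mean was 0.17, -0.28 and 0.11 on the log2 scale in the vehicle and 0.37, -0.19 and -0.18 in the TSA libraries. GRIA1, GRIA2, GRIK2, GRIK3 and GRM2 had their lowest vehicle value in library 2 and their highest TSA value in library 1, as the long transcripts did. Only GRIK3 (longest transcript 9101 nucleotides) belongs to that set, while GRIA1 has 5708, GRIA2 5621, GRIK2 4921 and GRM2 6550. GRIA4, also with 5621, did not show this, and the shorter GABBR1 (4527) and GRIK5 (3493) did. Whether length has a part in it was not tested for these genes. With trends on transcript length and GC content removed from each library, GRIA2 was still lower by 1.08 (adjusted p = 0.013), GRIK2 by 0.99 (adjusted p = 0.0047) and GRIK3 by 2.34 (adjusted p = 5e-06), limma in each case. In the same limma fit GRIA1 was lower by 4.20 (adjusted p = 2.3e-06) and GRM2 by 1.08 (adjusted p = 0.00039). Over all 19 alternatives the adjusted p lay between 0.00084 and 0.046 for GRIA2, 0.0008 and 0.021 for GRIK2, and 5e-06 and 0.0011 for GRIK3.

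Promoters are shown for the genes with the greatest falls and rises that have an entry in the reference, and short windows for the only receptor promoters that hold the longer of the paired motifs bound by REST, a repressor of neuronal genes. RefSeq windows on GRCh38.p14, from 250 bases before to 50 after each transcription start, existed for 63 of the 85 genes (85 windows), while GABRA3, GABRD, CHRNA5, DRD2 and ADRA2B were among the called genes that had none. The motifs named in the next paragraph were searched on both strands. Capitals mark the matches, which describe letters only and are not evidence of a bound site. GRIA1 (chr5:153490420-153490719, plus strand, 57.3% G or C) fell and held none of them in the window of its first start, GABBR2 (chr9:98708886-98709185, minus strand, 79.0%) fell and held GGGCGG only, GABRB2 (chr5:161546676-161546975, minus strand, 39.0%) rose and held none, and GABRQ (chrX:152637645-152637944, plus strand, 73.7%) rose and held 9 matches. A window of a second GRIA1 start (chr5:153491922-153492221, plus strand), not printed, held 1 match, to CCAAT.
GRIA1: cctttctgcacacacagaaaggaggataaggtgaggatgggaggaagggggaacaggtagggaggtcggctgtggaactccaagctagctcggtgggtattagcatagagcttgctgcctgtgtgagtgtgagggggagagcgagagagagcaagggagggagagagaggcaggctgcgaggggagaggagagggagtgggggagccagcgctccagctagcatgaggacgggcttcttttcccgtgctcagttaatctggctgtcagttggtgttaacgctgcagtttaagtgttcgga
GABBR2: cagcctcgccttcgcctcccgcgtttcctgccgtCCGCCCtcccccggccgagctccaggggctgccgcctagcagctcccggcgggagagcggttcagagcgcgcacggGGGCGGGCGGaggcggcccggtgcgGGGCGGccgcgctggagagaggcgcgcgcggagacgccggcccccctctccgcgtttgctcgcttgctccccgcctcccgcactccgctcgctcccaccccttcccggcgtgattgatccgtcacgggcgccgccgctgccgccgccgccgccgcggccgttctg
GABRB2: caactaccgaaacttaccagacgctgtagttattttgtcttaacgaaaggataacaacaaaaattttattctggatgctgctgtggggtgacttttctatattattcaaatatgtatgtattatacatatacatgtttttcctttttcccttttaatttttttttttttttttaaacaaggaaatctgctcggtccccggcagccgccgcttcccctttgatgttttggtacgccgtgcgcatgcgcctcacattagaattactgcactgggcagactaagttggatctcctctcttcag
GABRQ: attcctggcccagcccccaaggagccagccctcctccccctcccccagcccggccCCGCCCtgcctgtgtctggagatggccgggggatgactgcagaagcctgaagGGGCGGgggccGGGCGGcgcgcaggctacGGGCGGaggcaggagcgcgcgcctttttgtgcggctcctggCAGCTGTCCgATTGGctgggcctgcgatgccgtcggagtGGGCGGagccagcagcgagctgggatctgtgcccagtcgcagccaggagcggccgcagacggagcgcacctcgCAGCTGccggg
In the windows of GRM2 (chr3:51706840-51706898) and GRIA2 (chr4:157220375-157220433), both plus strand, capitals mark matches to both motifs of the REST element, TTCAGCACC and GGACAG, the GRIA2 match reading along the opposite strand. The stretch between the motifs is longer in GRM2 than in GRIA2, so their spacing is not the same. Matches to the other motifs are not marked in these short windows.
GRM2: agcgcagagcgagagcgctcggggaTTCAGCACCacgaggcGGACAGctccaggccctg
GRIA2: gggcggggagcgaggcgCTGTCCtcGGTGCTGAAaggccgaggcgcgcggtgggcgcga

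The GC box GGGCGG was present in 45.0% of all 35116 promoter windows of this length and in 56.5% of the 85 receptor windows. The shares were 17.9% and 18.8% for the E-box CAGCTG, 34.6% and 40.0% for the CCAAT box, 11.5% and 8.24% for TATAAA, 1.85% and 1.18% for the cyclic AMP element TGACGTCA, and 20.5% and 29.4% for GGACAG. In GABRQ a CAGCTG overlaps a GGACAG match, and in GABBR2 a pair of GGGCGG matches overlap each other. TTCAGCACC was present in 0.376% of all windows and in 2.35% of receptor windows, the windows of GRIA2 and GRM2, both of which fell. REST itself was at 0.114, 0.0606 and 0 TPM in vehicle and 8.41, 4.00 and 4.29 TPM in TSA libraries, a rise of 2.57 ± 0.26 (adjusted p = 0.00021, limma), and it passed the filter only through the TSA libraries, so that this call too follows in part from it. Its part in the level of either gene was not tested. The median GC content was 75.0% over the 4 windows of genes that rose, 64.7% over the 17 of genes that fell, 66.8% over the 10 of tested genes that did not pass and 58.7% over all windows.

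GABA-A, GABA-B and glycine receptor genes changed in both directions: 10 of 23 were tested, 3 rose, 3 fell and 4 did not pass, with a median log2 difference of -0.02. GABRD (ENSG00000187730.6), the delta subunit of GABA-A receptors outside the synapse that respond to low, steady GABA, was at 2.504, 2.580 and 3.470 TPM in vehicle and 21.88, 24.95 and 27.61 TPM in TSA libraries. The mean was 8.70-fold higher (log2 difference 2.75 ± 0.16, adjusted p = 2.3e-05), the greatest rise among the tested receptor genes on this scale. GABRQ (ENSG00000147402.7), the theta subunit, was at 7.01, 5.23 and 6.29 TPM in vehicle and 17.4, 13.2 and 12.8 TPM in TSA libraries and rose by 1.10 ± 0.17 (adjusted p = 0.0013). GABRB2 (ENSG00000145864.8), a beta subunit of many brain GABA-A receptors, went from 0, 1 and 1 reads in the vehicle libraries to 164, 124 and 118 reads in the TSA libraries. These correspond to at most 0.0186 TPM in vehicle and to 2.64, 1.94 and 1.95 TPM after TSA, with a depth-scaled ratio of 207 (95% interval 56.9 to 1714, for counting error only), and the rise of 1.64 ± 0.15 (adjusted p = 0.00013) on the log2(TPM + 1) scale understates it.

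GABRA3 (ENSG00000011677.8), an alpha subunit of the benzodiazepine-sensitive kind, fell by 1.32 (SE 0.15, adjusted p = 0.00033), from 17.6, 18.2 and 17.3 TPM in vehicle to 5.42, 7.87 and 6.43 TPM in TSA libraries. GABRP (ENSG00000094755.12), the pi subunit, which is best known outside the nervous system, was at 2.66, 1.86 and 1.93 TPM in vehicle and 0.953, 0.667 and 0.306 TPM in TSA and fell by 0.95 (SE 0.20, adjusted p = 0.0062).

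The GABA-A genes summed to 59.0 ± 2.98 TPM in vehicle and 85.0 ± 2.33 TPM in TSA, with no overlap between the groups. GABRA3 made up 27.7% to 31.6% of that sum in vehicle and 6.18% to 9.34% in TSA libraries, while GABRD went from between 4.39% and 5.56% to between 24.96% and 33.18%. The ratio of GABRD to GABRA3, also chosen after the values were seen, was 0.143, 0.142 and 0.200 in vehicle and 4.04, 3.17 and 4.29 in TSA libraries. GABRG3, a gamma subunit of the kind that joins alpha and beta subunits at synapses, made up no more than 0.945% of the sum in any library.

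GABA-B receptors work as a pair of GABBR1, which binds GABA, and GABBR2, which couples to the G protein and brings GABBR1 to the cell surface. GABBR2 (ENSG00000136928.4) was at 24.7, 25.5 and 37.5 TPM in vehicle and 2.54, 2.88 and 2.33 TPM in TSA libraries, 11.3-fold lower in the means (log2 difference -3.05 ± 0.19, adjusted p = 2.9e-05). GABBR1 was at 6.45, 3.51 and 4.07 TPM in vehicle and 8.18, 3.61 and 4.29 TPM in TSA libraries, overlapping between the groups (0.13, 95% interval -0.63 to 0.89, adjusted p = 0.74). Vehicle libraries held 3.82, 7.26 and 9.21 GABBR2 transcripts for each GABBR1 transcript and TSA libraries 0.311, 0.798 and 0.543, so that the partner in excess was GABBR2 in every vehicle and GABBR1 in every TSA library. This ratio was chosen after the values were seen, and GABBR1 shares exon sequence with UBD on the same strand.

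Glycine receptors consist of alpha subunits and the beta subunit GLRB, which anchors them at synapses. GLRB was at 12.7, 15.1 and 14.0 TPM in vehicle and 11.4, 12.3 and 11.9 TPM in TSA libraries and did not pass (-0.21 ± 0.12, adjusted p = 0.15). GLRA3, the only alpha subunit past the filter, lay between 0.601 and 1.23 TPM in all libraries and did not pass either (-0.17, 95% interval -0.60 to 0.26, adjusted p = 0.44). The other glycine receptor genes, GLRA1, GLRA2 and GLRA4, each had no read in vehicle and at most 3 over the TSA libraries.

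**Figure D2:**
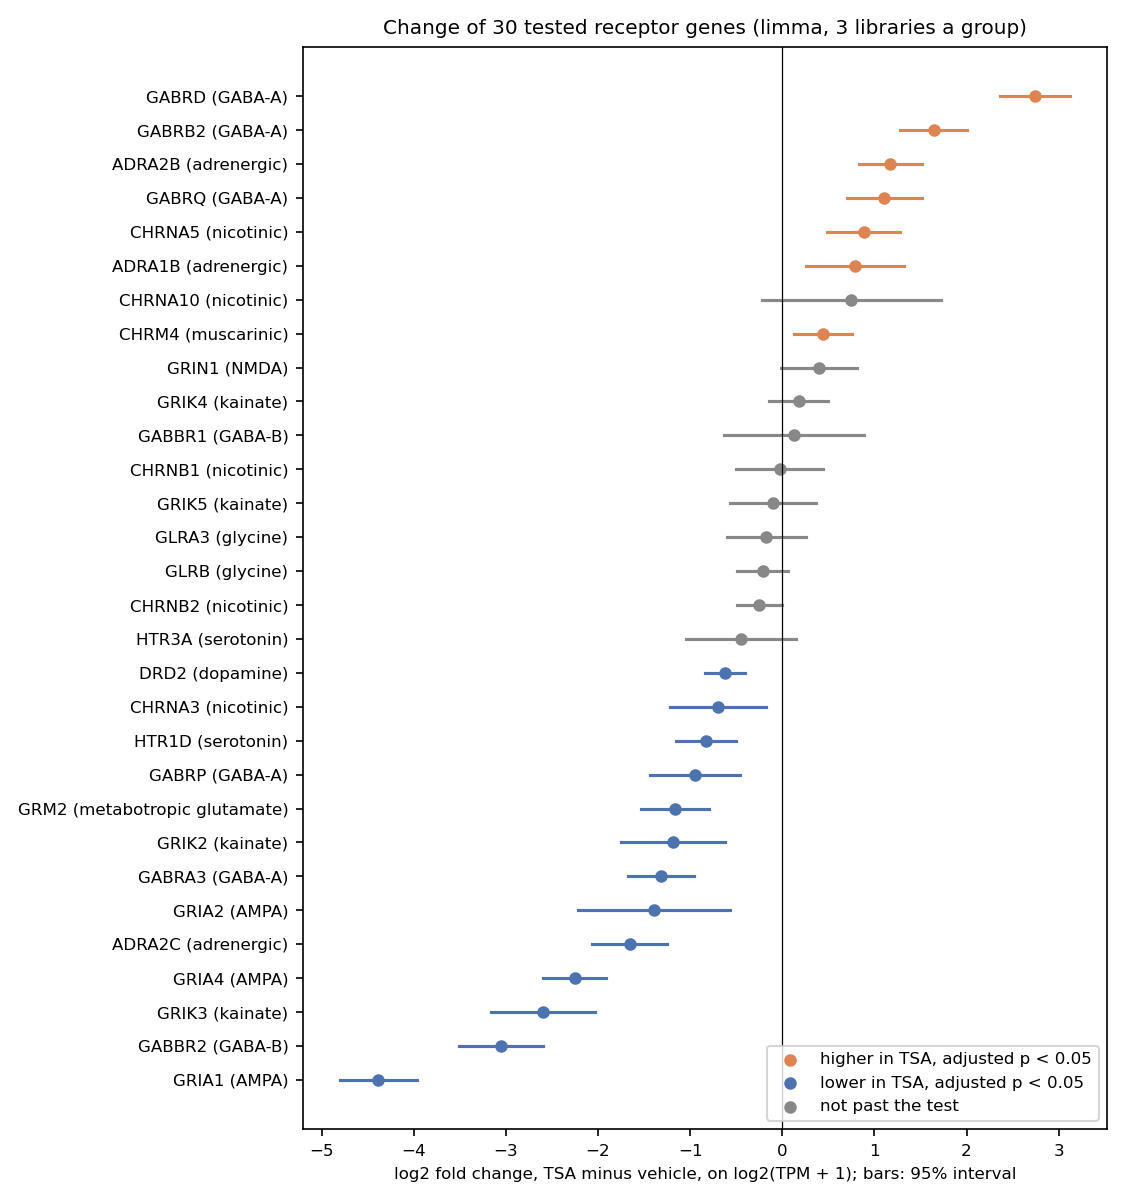
Log2 difference between TSA and vehicle for 30 tested receptor genes on the log2(TPM + 1) scale, with 95% intervals from limma, ordered by size. Orange marks the 7 genes shown that rose, blue the 13 that fell and grey the 10 that did not pass, and the 4 genes at the lower end are GRIA1, GABBR2, GRIK3 and GRIA4.

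Of the 19 acetylcholine receptor genes 6 were tested, with 2 higher, 1 lower and 3 that did not pass. CHRNA5 (ENSG00000169684.9), an accessory nicotinic subunit known from variants tied to smoking, was at 29.3, 39.5 and 30.4 TPM in vehicle and 52.8, 72.8 and 59.8 TPM in TSA libraries and rose by 0.88 ± 0.16 (adjusted p = 0.0032). CHRNA3 (ENSG00000080644.11), which forms the ganglionic receptor with beta subunits, was at 4.56, 7.68 and 5.72 TPM in vehicle and 2.51, 3.57 and 3.73 TPM in TSA libraries. It fell by 0.70 (SE 0.22, adjusted p = 0.029), a call that 8 of 18 alternatives ended, among them leaving out any single library but vehicle library 1, and over the 18 its adjusted p lay between 0.0081 and 0.11. The groups of CHRNA3 did not overlap.

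CHRNA5, CHRNA3 and CHRNB4 lie next to each other on chromosome 15, where CHRNA5 and CHRNA3 run on opposite strands and share exon sequence at their ends. Whether counting used the strand is not stated in any source used here, and reads of the shared stretch could belong to either gene. The ratio of CHRNA5 to CHRNA3 was 6.43, 5.14 and 5.31 in vehicle and 20.998, 20.360 and 16.012 in TSA libraries. CHRNB4, the beta subunit of the cluster, had 8, 11 and 9 reads in vehicle and 11, 9 and 13 in TSA libraries, which overlap. By the calls given, CHRNA5 was thus higher and CHRNA3 lower, while CHRNB4 was not distinguishable. The CHRNA3 call was ended by 8 of 18 alternatives, so opposite changes within the cluster are not settled.

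CHRNB2, the beta subunit of the main brain nicotinic receptor, was at 56.7, 52.9 and 55.1 TPM in vehicle and 51.8, 43.6 and 43.1 TPM in TSA libraries (-0.25 ± 0.10, adjusted p = 0.069). CHRNA10, a subunit of hair cell receptors whose exons overlap those of NUP98 on the same strand, varied between 0.784 and 1.83 TPM in vehicle and 1.04 and 4.94 TPM in TSA libraries (0.75 ± 0.41, adjusted p = 0.15). CHRNB1, a subunit of the muscle receptor, lay between 1.73 and 3.02 TPM in all libraries (-0.03, 95% interval -0.50 to 0.44, adjusted p = 0.91). None of these passed the test. The nicotinic sum was 99.2 ± 5.73 TPM in vehicle and 118.8 ± 5.70 TPM in TSA, of which CHRNB2 made up 49.995% to 59.173% and 34.8% to 44.5% and CHRNA5 30.6% to 37.3% and 45.3% to 58.1%.

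CHRM4 (ENSG00000180720.6), a muscarinic receptor that lowers cyclic AMP, accounted for 93.8% to 99.0% of the muscarinic transcripts in every library. It was at 27.9, 35.4 and 31.4 TPM in vehicle and 37.5, 46.6 and 45.9 TPM in TSA libraries and rose by 0.45 ± 0.13 (adjusted p = 0.023). The lowest TSA library lay only a little above the highest vehicle library. The call was ended by 5 of 19 alternatives, among them leaving out vehicle library 1, vehicle library 3, TSA library 2 or TSA library 3 (adjusted p of 0.075, 0.065, 0.079 and 0.082) and removing length and GC trends (a difference of 0.17). Over the 19 its adjusted p lay between 0.0046 and 0.11.

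Among the monoamine receptors 7 of 21 genes were tested, with 3 higher, 3 lower and 1 that did not pass. ADRA2C (ENSG00000184160.6), an alpha adrenergic receptor that lowers cyclic AMP, went from 17.6, 17.1 and 12.9 TPM to 3.921, 4.065 and 4.995 TPM, a fall by 1.66 (SE 0.17, adjusted p = 0.0002). ADRA2C made up 78.1% to 80.3% of the adrenergic sum in vehicle and 12.4% to 14.6% in TSA libraries. It was therefore the most abundant adrenergic transcript in all 3 vehicle libraries and in no TSA library, while the sum was 20.1 ± 3.30 and 32.6 ± 1.40 TPM.

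ADRA2B (ENSG00000222040.3), of the same subclass as ADRA2C, rose from 0.228, 0.146 and 0.302 TPM to 1.93, 1.55 and 1.81 TPM (1.17 ± 0.14, adjusted p = 0.00044). ADRA1B (ENSG00000170214.3), a receptor that acts through phospholipase C, rose from 0.431, 0.916 and 0.406 TPM to 1.74, 1.16 and 2.36 TPM (0.79 ± 0.22, adjusted p = 0.02). The ADRA1B call was ended by 6 of 18 alternatives, for instance without vehicle library 1, vehicle library 3 or TSA library 3 (adjusted p of 0.065, 0.07 and 0.06), and over all 18 its adjusted p lay between 0.013 and 0.095. Neither gene overlapped between the groups, and both were under 1 TPM in every vehicle library.

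DRD2 (ENSG00000149295.9), the dopamine receptor that lowers cyclic AMP and the target of antipsychotic drugs, was at 59.6, 61.0 and 65.6 TPM in vehicle and 37.8, 39.2 and 42.8 TPM in TSA libraries and fell by 0.63 (SE 0.09, adjusted p = 0.00098). It made up at least 98.3% of the dopamine receptor transcripts in every library. HTR1D (ENSG00000179546.3), a serotonin receptor targeted by triptans, fell from 3.94, 3.69 and 3.52 TPM to 1.69, 1.51 and 1.78 TPM (-0.83 ± 0.14, adjusted p = 0.0019). HTR3A, the subunit of the serotonin-gated channel, was at 20.7, 36.2 and 18.1 TPM in vehicle and 15.8, 17.6 and 18.3 TPM in TSA libraries, where 1 vehicle library stood apart and the groups overlapped (-0.45 ± 0.25, adjusted p = 0.16).

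**Figure D3:**
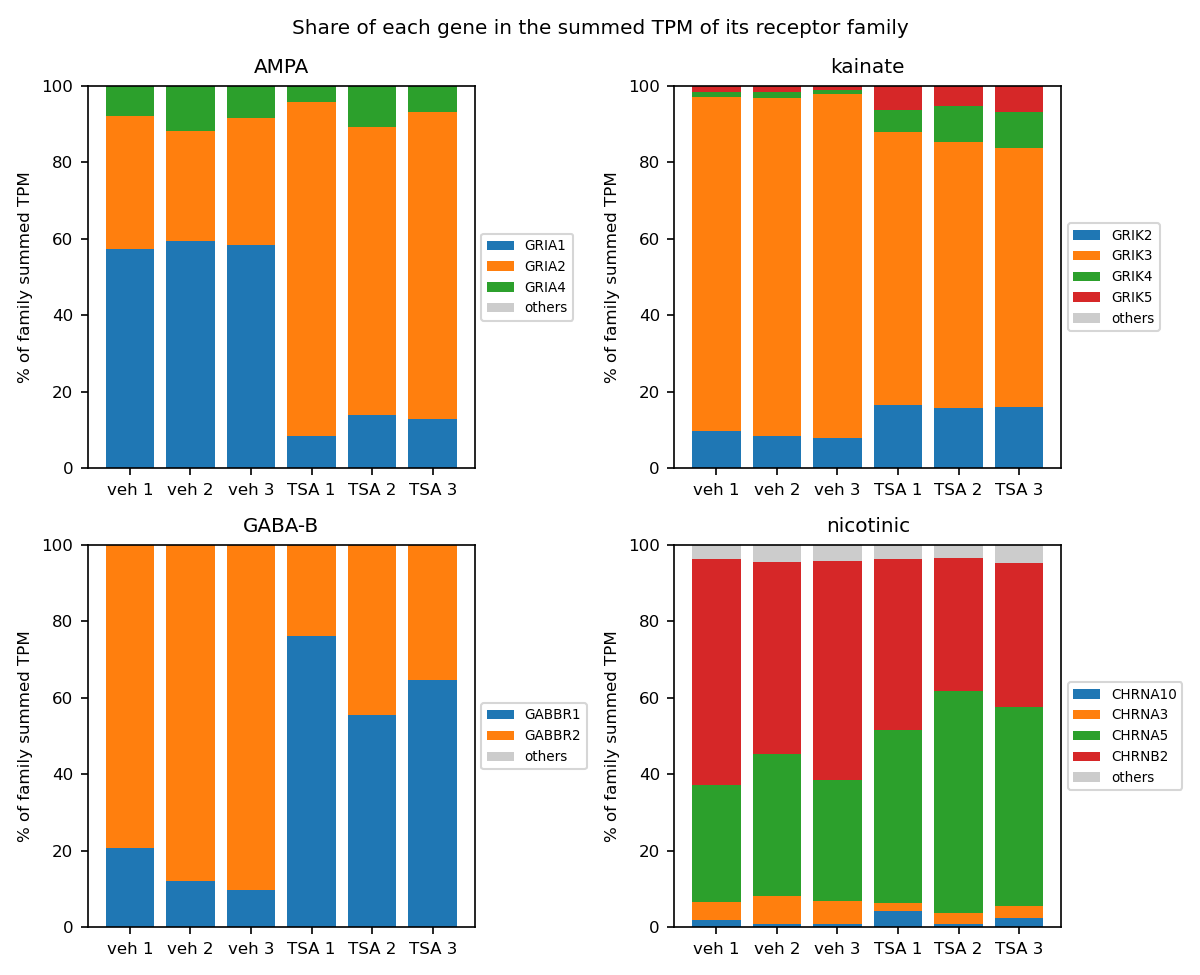
Share of each gene in the summed TPM of the AMPA, kainate, GABA-B and nicotinic receptor genes, in percent, for each vehicle (veh) and TSA library; genes under 3% in every library are pooled as others. The largest share belongs to GRIA1 in vehicle and GRIA2 in TSA libraries, and to GABBR2 in vehicle and GABBR1 in TSA libraries, while GRIK3 leads the kainate genes in both groups. These are shares only: in TPM GRIA2 itself fell and GABBR1 did not pass the test.

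The other 53 receptor genes were below the filter, at no more than 1.48 TPM in any library, and were compared by recovered reads. Of these, 30 had 10 reads or more in total and entered a limma-voom fit of all genes with that many reads, an alternative added after the data were seen. That fit called 58.3% of all genes it tested. In it 11 of the 30 rose, 6 fell and 13 did not pass, where 31.3% of all genes below the filter with that many reads rose and 11.7% fell. The other 23 had fewer than 10 reads in all 6 libraries together and allow no comparison. In all, 24 receptor genes had no read in any vehicle library and 1, CHRM5, had none in any TSA library. All 31814 genes of the table were above 0 in at least 1 library. A gene with no read in vehicle therefore has TSA reads by construction. The share of all genes with no read in vehicle is not given here, so the 24 cannot be set against a background. Of the 85 receptor genes 11 (12.9%) had no read in vehicle and more than 3 in the TSA libraries, against 4.08% of all genes in the table.

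HTR7, a serotonin receptor that raises cyclic AMP, had no read in vehicle and 9, 20 and 10 reads in the TSA libraries, at least 13.2-fold higher when 3 reads over the vehicle group are taken as the floor (voom adjusted p = 0.00033). ADRA1A, an alpha adrenergic receptor that acts through phospholipase C, likewise went from no read to 12, 14 and 13 reads, at least 13.2-fold higher (adjusted p = 8.7e-05). GABRA5, a GABA-A alpha subunit of the hippocampus, went from none to 11, 9 and 8 reads, at least 9.51-fold higher (adjusted p = 0.00017). GRIN3B, an NMDA subunit that lowers calcium flow, went from none to 9, 5 and 9 reads, at least 7.81-fold higher (adjusted p = 0.00052), and its exons overlap those of TMEM259 on the opposite strand. None of these genes exceeded 0.778 TPM after TSA, so their levels remained far below those of GRIA2 or GABRD. All had no read in vehicle and entered the voom fit only through their TSA reads, so their calls follow in part from its filter.

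The other scarce genes that rose had between 0 and 69 reads in vehicle. GRIN2D, an NMDA subunit, went from 17 reads in vehicle to 53 in TSA (adjusted p = 0.013), and ADRB1, the cardiac beta adrenergic receptor, from 13 to 48 (adjusted p = 0.0063). CHRNA4, the alpha partner of CHRNB2, went from 69 to 162 reads (1.24 ± 0.28, adjusted p = 0.0059), and CHRNA7 from 35 to 94 (adjusted p = 0.0087), the last uncertain because it has a near-identical partial copy in the genome. GABRE, GABRR1 and CHRNA2, named because this fit called them, a choice made after the values were seen, had 1, 1 and 0 reads in vehicle and 40, 15 and 11 in TSA libraries. These genes too passed the filter of that fit only through the TSA libraries.

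Falls among the scarce genes included GRM4, a metabotropic glutamate receptor that lowers cyclic AMP, with 110, 80 and 119 reads in vehicle and 21, 17 and 20 in TSA libraries (-2.35 ± 0.25, adjusted p = 0.00013, voom). CHRM2, the muscarinic receptor of the heart, had 71, 38 and 85 reads in vehicle and 29, 18 and 10 in TSA (-1.77 ± 0.42, adjusted p = 0.008). The falls of GABRR2, a subunit of GABA receptors of the retina, from 18 reads to 2 (adjusted p = 0.024) and of CHRNE, a subunit of the adult muscle receptor, from 34 to 14 (adjusted p = 0.036) rest on few reads. CHRM5, also named after its values were seen, had 11 reads in vehicle and none in TSA libraries, at least 3.60-fold lower. CHRM5 and GABRR2 passed the filter of the voom fit only through the vehicle libraries, so their calls follow in part from it.

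GRIN2B, an NMDA subunit of the developing brain, had more reads than any other gene below the filter, 228, 51 and 286 in vehicle and 154, 44 and 39 in TSA libraries. The low vehicle library and the high TSA library were again those with less and more of the long transcripts, and the difference did not pass (-1.21 ± 0.73, adjusted p = 0.19). GRM5, GRIN3A, GRIN2C, GABRG3, HTR6 and CHRNB4, also at 0.3 TPM or more in a group, did not pass, with adjusted p between 0.11 and 0.84.

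**Figure D4:**
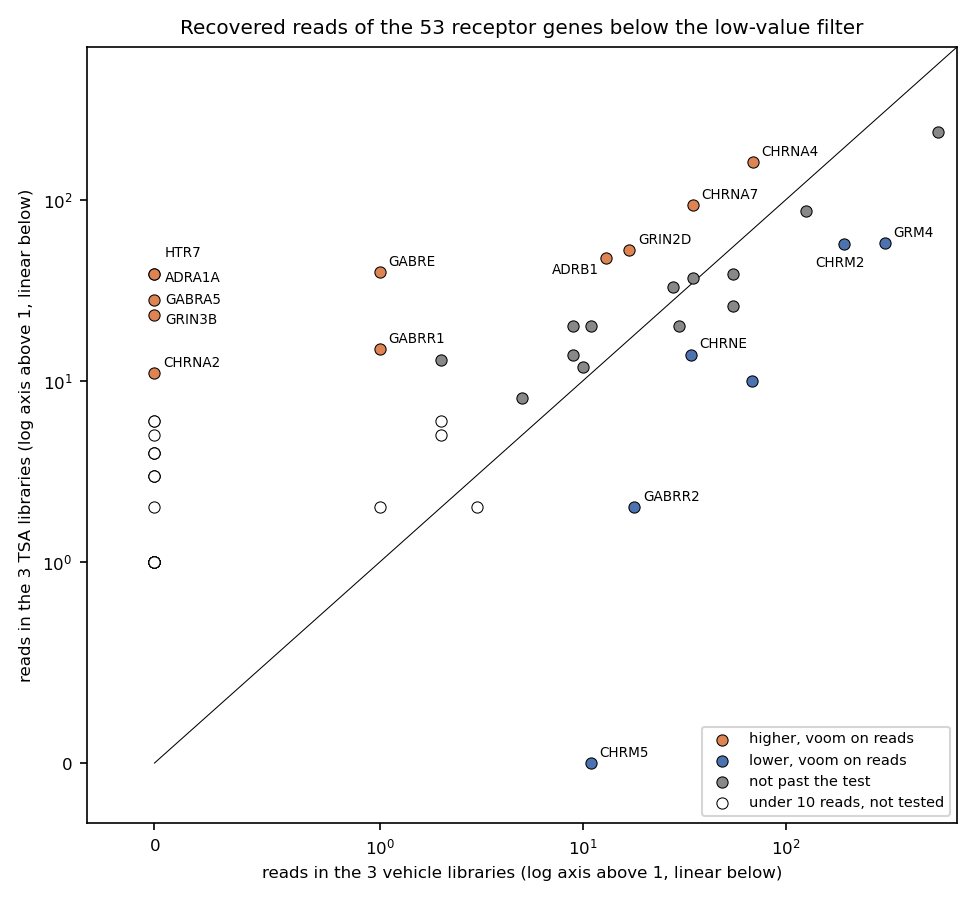
Recovered reads of the 53 receptor genes below the filter, summed over the 3 vehicle libraries on the horizontal and the 3 TSA libraries on the vertical axis, both logarithmic above 1 and linear below, with a line of equality. Orange and blue points are the 11 genes that rose and the 6 that fell in the voom fit, grey points did not pass, and open points had fewer than 10 reads in all.

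Receptor genes that are neighbours on a chromosome did not always move alike. On the X chromosome GABRA3 fell and its neighbour GABRQ rose. On chromosome 15 GABRA5 rose from no read, and GABRG3 next to it had 35 reads in vehicle and 37 in TSA libraries. GABRR1 and GABRR2 on chromosome 6, at few reads, also went in opposite directions.

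In the authors' deposited table of fold changes, 24 of the 85 genes were higher in TSA and 20 lower at an FDR under 0.05, where 21.8% and 19.5% of all 31814 genes were. The 32 genes tested here had the same call in the authors' deposited table except CHRNA10, which that table has as higher (FDR 0.024). For 4 of the tested genes described above the authors' deposited table gives a log2 fold change of -5.10 for GRIA1, -3.42 for GABBR2, 3.19 for GABRD and 7.36 for GABRB2.

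The proteins that receptors work with were described by 4 lists. Their counts are to be read beside all tested genes, of which 62.2% were called, 28.0% higher and 34.2% lower. Of the 90 genes of these lists that were tested, 16 passed the filter through 1 group only and all 16 were called, so that their calls follow in part from the filter. Among the genes named here, TMEM35, ABAT, ACHE, SLC17A7 and RGS9 passed only through the TSA libraries and SLC18A1 only through vehicle. Of 42 scaffold, auxiliary and assembly genes in the table, 32 were tested, 7 rose, 15 fell and 10 did not pass, with a median log2 difference of -0.39. CACNG4, an auxiliary subunit of AMPA receptors, fell from 175, 179 and 248 TPM to 22.2, 22.9 and 23.0 TPM (-3.07 ± 0.15, adjusted p = 1.2e-05), and GRIP1, a scaffold that binds GRIA2, from a mean of 19.1 to 1.80 TPM (-2.85 ± 0.16, adjusted p = 2e-05). KCTD16, an auxiliary subunit of GABA-B receptors, fell from 33.7, 16.3 and 25.1 TPM to 2.74, 1.48 and 1.45 TPM (-3.14 ± 0.30, adjusted p = 0.00015). TMEM35, whose product helps nicotinic receptors assemble, rose from 0.3494, 0.3096 and 0.1099 TPM to 6.91, 8.97 and 9.50 TPM (2.91 ± 0.18, adjusted p = 2.7e-05). The named genes of this list are the 4 with the greatest change, and the list as a whole moved in both directions.

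Of 22 enzymes that make or break down transmitters, 15 were tested, 6 rose, 7 fell and 2 did not pass (median 0.18). DDC, which makes dopamine and serotonin from their precursors, fell from 224, 268 and 272 TPM to 12.1, 21.4 and 21.1 TPM (-3.77 ± 0.22, adjusted p = 2.4e-05). ABAT, which breaks down GABA, rose from at most 0.108 TPM to 14.7, 13.1 and 13.3 TPM (3.75 ± 0.13, adjusted p = 6.6e-06). ACHE, which breaks down acetylcholine, rose from a mean of 0.320 to 10.3 TPM (3.09 ± 0.15, adjusted p = 1.3e-05) and GLDC, of the glycine cleavage system, from 2.37 to 35.2 TPM (3.43 ± 0.16, adjusted p = 1.2e-05).

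Of 21 transmitter transporters 11 were tested, 4 rose, 4 fell and 3 did not pass (median -0.50). SLC17A7, which loads glutamate into vesicles, rose from 0.124, 0.106 and 0.188 TPM to 31.5, 37.6 and 41.5 TPM (5.05 ± 0.15, adjusted p = 5.5e-06). SLC1A5, a carrier of neutral amino acids such as glutamine, rose from 12.5, 13.6 and 8.65 TPM to 80.4, 83.0 and 85.8 TPM (2.76 ± 0.16, adjusted p = 2.6e-05). SLC18A1, the vesicular monoamine carrier of endocrine cells, fell from a mean of 2.57 to 0.163 TPM (-1.57 ± 0.25, adjusted p = 0.0017).

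Of 35 G protein, cyclase, kinase, arrestin and RGS genes 32 were tested, 13 rose, 15 fell and 4 did not pass (median -0.21). GNG2, a gamma subunit of G proteins, fell from 261, 299 and 321 TPM to 29.72, 34.23 and 32.02 TPM (-3.16 ± 0.11, adjusted p = 6.3e-06), while GNG3, the neuronal gamma subunit, rose from 0.170, 1.62 and 1.92 TPM to 7.024, 12.011 and 11.849 TPM (2.41 ± 0.39, adjusted p = 0.0017). GNAQ, the alpha subunit that activates phospholipase C, fell from a mean of 92.90 to 15.02 TPM (-2.56 ± 0.16, adjusted p = 3.4e-05), and RGS9, which shortens signals of Gi-coupled receptors, rose from 0.189 to 7.25 TPM (2.79 ± 0.18, adjusted p = 3.1e-05).

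**Figure D5:**
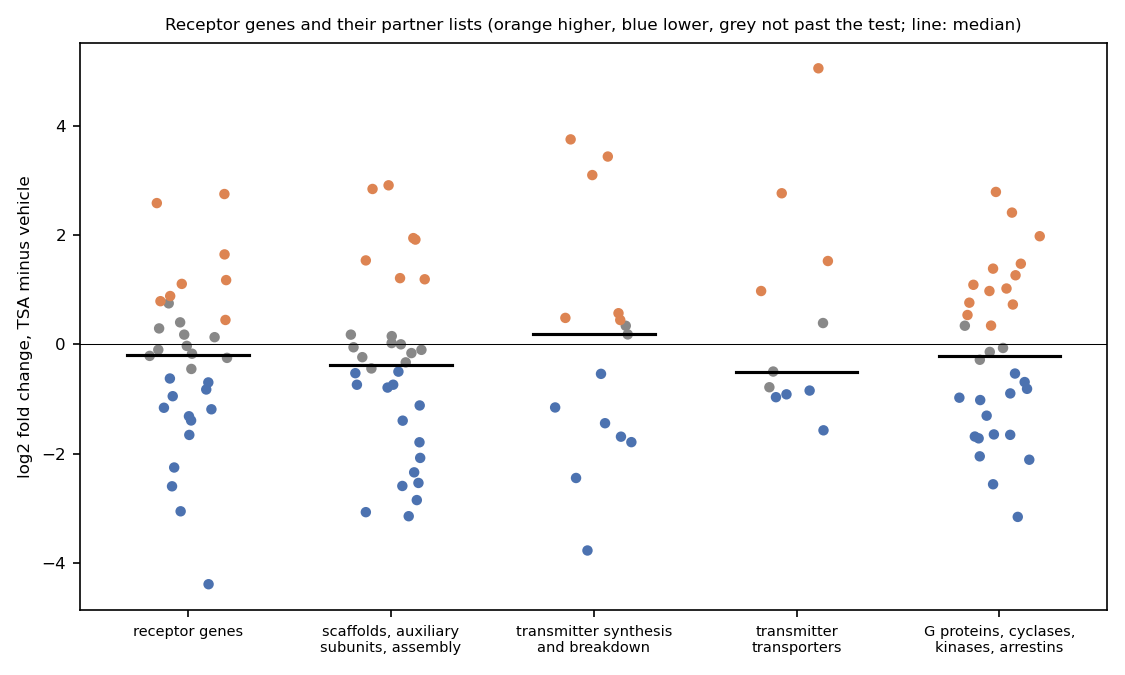
Log2 difference between TSA and vehicle on the log2(TPM + 1) scale for each tested gene among the receptors and the 4 lists of partner genes, spread sideways for legibility, with the median of each group as a line. Orange points rose, blue points fell and grey points did not pass, and every group holds genes in both directions with medians between -0.50 and 0.18.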

How the data were processed

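Polyadenylated RNA of 6 H69 libraries was sequenced on an Illumina instrument after a stranded kit, per the labels' protocols. The submitters' processing notes list edgeR, featureCounts, STAR 2.5.3a, FastQC 0.11.2, Picard 1.127 and build hg19, without roles, and the deposited tables are named for GENCODE 19. The authors deposited TPM per gene and library, scaled by gene length and library total. The authors' table of their own comparison, an edgeR likelihood ratio test per its name, holds log2 fold changes and mean log2 levels, per the file headers. Its test statistic, a score, is the authors' likelihood ratio. The p-value and the FDR of each gene were likewise deposited by them. Positive there means higher in TSA, settled against the TPM values.

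Since the values were TPM, log2(TPM + 1) was fitted with limma 3.58.1 (R 4.3.3, lmFit and eBayes with trend, two-sided) for genes that reached 1 TPM in 3 or more of the 6 libraries, adjusted by Benjamini-Hochberg over every gene fitted, at a threshold of 0.05. Such fold changes understate the change of low genes. Ratios of a gene's TPM between libraries were ratios of whole numbers (relative tolerance 1e-09) for 27643 of 27644 genes above 0 in at least 2 libraries, and the common multiple was taken from the mean level in the authors' table, met within 0.1 log2 by 31813 of 31814 genes and all 85 members. These reads gave the depth and a voom fit, planned where reads could be recovered; the voom fit of genes with 10 or more reads in total was added after the data were seen. Reads of the libraries of a group differed beyond sampling noise (chi-square per degree of freedom 6.73 to 88.2), so none was a resequenced copy of another. This cannot tell whether they came from separate cultures or RNA samples. Intervals and the floor of 3 reads cover counting error only.

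Results of some genes are not reported here; otherwise every receptor gene past the filter is named, those below it at a mean of 0.3 TPM or more in a group, and in each partner list up to 4 genes with the greatest change among those called. Members and lists were chosen with earlier results of these data known. Exon overlaps and lengths come from GENCODE 29 and promoters from RefSeq. The fit was also run on simulated reads. These had the same dispersion for every gene and few changed genes, so they do not show its error rate in these libraries. Alternatives covered pseudocounts, filters, scaling, variance models, the replicate number as a block, left-out libraries, and length and GC trends.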

Additional observations from a re-analysis of the deposited data

How the results depend on the processing

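Of the 21 receptor genes called, 18 kept sign and side of the threshold under each of the 18 or 19 alternatives that tested them, and ADRA1B, CHRM4 and CHRNA3 lost the call under at least 1. None of the 21 changed sign. Of the 11 genes not called, 5 gained a call under at least 1, CHRNA10, CHRNB2, GRIN1 and HTR3A among them. The number called higher, 8, was 18 with no filter, 5 with a filter of 5 TPM and 21 by voom with 10 reads or more, each testing another set of genes. Leaving out 1 library gave 6 to 8 higher and 12 to 13 lower receptor genes, and 4289 to 4977 higher and 5157 to 6585 lower genes overall. Same-numbered libraries of the groups deviated with r of 0.63, 0.59 and -0.07, so the numbers were not taken as pairs, and the replicate block gave 10 higher and 14 lower receptor genes and 5637 and 6848 genes overall. TSA libraries 1 and 2 correlated best with their own number in vehicle, and library 3 did not. The median log2 difference of all genes was -0.10 as deposited, 0.01 with median-of-ratios or quantile scaling and 0.04 by voom. With median-of-ratios scaling the mean summed TPM after TSA was 88.7 for GABA-A, 13.4 for glycine and 34.1 for adrenergic receptor genes, with the vehicle means at 56.6, 14.4 and 19.2. The mean number of receptor genes detected, 29.7 in vehicle and 29.3 in TSA at 1 TPM, was 50 and 57 at 0.1 TPM and 18.3 and 14.3 at 5 TPM. Sign changes occurred only in genes that had not passed: GLRA3 was at 0.36 with length and GC trends removed, GABBR1 ranged from -0.17 (without TSA replicate 1) to 0.34 when 1 library was left out, GRIK5 from -0.22 to 0.037 and CHRNB1 from -0.18 to 0.096, and CHRNB1 was at 0.055 with median-of-ratios scaling and 0.11 in both voom fits. The cause was not tested. Genes under 10 reads in total could not be compared at this depth.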
